A study of Mus musculus with 30 samples.

Results

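Transcript levels of mouse ovaries at 18.5 days post coitum (dpc), shortly before birth, were compared with those at 16.5 dpc. All arrays labelled with these ages were taken, 12 of the 30 arrays of a time course that also covers 11.5, 12.5 and 14.5 dpc. Each age has 2 numbered samples, and each number has 1 Affymetrix array of each of 3 types (A, B and C) with different probe sets. The 18.5 dpc group and the 16.5 dpc group are total RNA of pooled ovaries of BL/6-129 mice, extracted with TRIzol, and no treatment or engineered allele is given for either. The labels mention sexing by PCR for Sry only at the younger ages. Whether samples 1 and 2 of an age came from separate pools is not stated, so the p-values measure the spread between numbered samples, which may be technical. Nor do the labels say that the arrays A, B and C of a number received the same RNA, although these were treated as 1 sample wherever a sample was left out.

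In the fetal ovary, germ cells enter meiosis as cysts, pass through the prophase stages in which homologous chromosomes pair and recombine, and arrest late in that prophase. Around birth the cysts break down and single oocytes become enclosed by flat pregranulosa cells as primordial follicles. During that passage oocytes begin to make the transcription factors, zona pellucida proteins and stored maternal products that mark an oocyte, while genes of meiotic entry and chromosome pairing are shut off.

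The deposited values are signal intensities, 1 per probe set and array, scaled by the authors to a mean of 125 on every array. They were analysed as log2(signal + 16), so each fold change is one of signal + 16 and is too small for dim genes. Of 36701 probe sets, 24825 reached a signal of 50 on at least 2 of the 10 arrays of their type and were tested with limma in a model of all 5 ages. Benjamini-Hochberg adjustment of the p-values ran over all 24825 at once, and a change was called at an adjusted p under 0.05. By that rule 171 probe sets (0.689%) were called for 16.5 against 14.5 dpc, the interval before, which shares the 16.5 dpc arrays. For each of the 12589 named genes the brightest tested probe set was used. Presence calls were not used. A low signal is therefore not read as absence, and signals of different probe sets are not on a common scale. RNA came from whole ovaries, so fewer cells of a type and less RNA per cell cannot be told apart.

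At 18.5 dpc 107 probe sets were higher than at 16.5 dpc (0.431% of those tested) and 48 were lower (0.193%), and 13.1% of the tested probe sets had an unadjusted p under 0.05. Among the called changes 98 of the rises and 42 of the falls were at least 2-fold, with a median of 3.21-fold for the rises and 2.57-fold for the falls. With 2 samples an age a small change rarely reaches the threshold, so these sizes are partly set by it. Of the 107 that rose, 42 had a mean signal under 50 at 16.5 dpc and 25 of these stayed under 50 at all 4 earlier ages. A probe set that is low at the younger ages could be tested only where 18.5 dpc was high, so this pattern is partly set by the filter. Of the 107 rises 27 reached the filter only with the 18.5 dpc arrays, as did 859 of the 24825 tested, and none of the 48 falls rested on the 16.5 dpc arrays in that way. For 96 of the rises 18.5 dpc was the age of the highest mean, and for 50 of them 16.5 dpc was the age of the lowest. Of the 48 that fell, 26 peaked at 16.5 dpc and 31 had their lowest mean at 18.5 dpc. These counts of highest and lowest ages are partly fixed by the calls, which rest on the same 18.5 and 16.5 dpc values. The shares over all tested probe sets are not given. Within an age, Pearson's r of sample 1 with sample 2 over the log2 values of the tested probe sets was 0.974 at 18.5 dpc and 0.966 at 16.5 dpc on array A, and 0.859 at 18.5 dpc and 0.856 at 16.5 dpc on array C. The 3 prime to 5 prime signal ratio of the beta-actin control, averaged over the 3 array types, was 1.74 and 1.82 at 18.5 dpc, against 1.54 and 1.57 at 16.5 dpc. That of the Gapdh control was 1.08 and 1.05 at 18.5 dpc, against 0.917 and 1.09 at 16.5 dpc, and overlapped. The part of these ratios in the results was not tested.

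The number of calls rested on single samples of these 2 ages. Without 18.5 dpc sample 1 there were 38 calls, without 18.5 dpc sample 2 there were 33, without 16.5 dpc sample 1 there were 37 and without 16.5 dpc sample 2 there were 69, in place of 155. With a sample left out, the remaining sample of that age is assumed to vary like the other ages. Leaving out 1 sample of another age gave 120 or 124 calls for 14.5 dpc, 93 or 92 for 12.5 dpc and 240 or 242 for 11.5 dpc. A core of 22 probe sets was called with every sample left out in turn and under the 12 other settings tried, 21 of them higher and 1 lower at 18.5 dpc. The named genes of the 21 are Dppa3, Ccno, Lhx8, Nobox, Esrp1, Jag2, Kit, Gtsf1, Tcl1, Dppa4, Uchl1, Id1, Cks2, Elavl2, Lmo7, Gdpd1, Mat2b and Lsm14b, and the 1 lower is H2-K2.

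**Figure D1:**
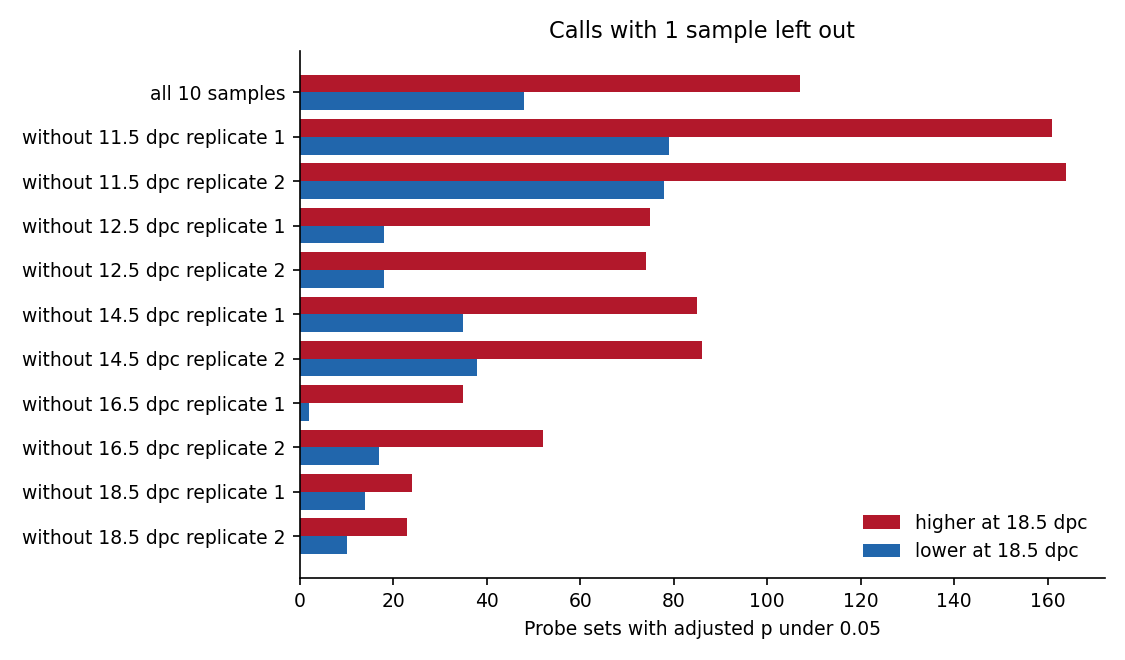
Number of probe sets with an adjusted p under 0.05 for 18.5 against 16.5 dpc, with all 10 samples and with each sample left out in turn (red bars, higher at 18.5 dpc; blue bars, lower at 18.5 dpc). With all samples the bars are 107 and 48, and without 18.5 dpc sample 2 they are 23 and 10.

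Genes of 5 oocyte lists made up 16 of the 22 listed genes that rose, over 31 lists in all. The 5 lists cover oocyte transcription factors, zona pellucida and surface proteins, maternal-effect products, the Nlrp family and the control of meiotic arrest, and 75 of their genes were tested. Of these 75 genes 16 rose and 0 fell, where 0.588% of all tested genes rose and 0.254% fell. The same shares apply to the list counts below. All 31 lists were chosen with earlier results of these data known, so their counts are not independent of these data. The median log2 change of the 75 genes was 0.26, against -0.01 over all tested genes. Of the 75 genes 13 reached the filter only with the 18.5 dpc arrays, and these include 8 of the 16 that rose, Lhx8, Nobox, Esrp1, Nlrp5, Nlrp4f, Nlrp4g, Ccno and Ybx2. Such genes had to be higher at 18.5 dpc to be tested. Among the other 62 genes 8 rose and the median was 0.13, against -0.02 over the 12300 genes that reach the filter without those arrays. Without either of the 18.5 dpc samples 10 of the 16 were called, 12 were called without 16.5 dpc sample 1 and 13 without 16.5 dpc sample 2.

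Among the transcription factors Lhx8, Nobox and Foxo3 rose, and 11 of the 14 tested members did not pass, with a list median of 0.20. Lhx8, a LIM-homeobox factor that oocytes of primordial follicles need, had signals of 588.7 and 679.1 at 18.5 dpc, against 41.8 and 30.1 at 16.5 dpc (log2 change 3.65 ± 0.27 SE, limma adjusted p = 7.3e-05). Its signals were between 5.3 and 17.7 at the 3 younger ages, so both 16.5 dpc samples stood above all of the younger ones and far under both 18.5 dpc samples. Nobox, a homeobox factor required for the first steps of oocyte growth, was read by probe sets on arrays A and C. The array C signals were 601.1 and 597.0 at 18.5 dpc, against 37.5 and 31.3 at 16.5 dpc (3.61 ± 0.41, adjusted p = 0.0014). The array A signals were 129.7 and 164.1 at 18.5 dpc, against 10.8 and 7.4 at 16.5 dpc (2.69 ± 0.34, adjusted p = 0.0033). Neither Nobox probe set showed a step before 18.5 dpc, which is partly set by the filter, since Nobox reached it only with the 18.5 dpc arrays. The array C signals were between 26.7 and 38.9 at the 3 younger ages.

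Foxo3, a forkhead factor that keeps primordial follicles dormant, rose less. Its signals were 477.1 and 511.6 at 18.5 dpc, against 269.8 and 225.3 at 16.5 dpc (0.96 ± 0.17, adjusted p = 0.030), and the call was lost without any 1 of these 4 samples, with an adjusted p of up to 0.21 without 18.5 dpc sample 2, and without the intensity trend. Figla, the basic helix-loop-helix factor that acts upstream of the zona genes, had signals of 245.5 and 305.0 at 18.5 dpc, against 126.9 and 90.3 at 16.5 dpc. The Figla samples did not overlap, as in 23.0% of all tested probe sets, but the change of 1.23 ± 0.33 missed the threshold (adjusted p = 0.13). Figla was called in 3 of the 12 other settings, with log2(signal + 64) and in both fits of fewer ages, and without either 11.5 dpc sample. The means of Figla climbed at every step from 11.5 to 18.5 dpc, as the plot of signals over the 5 ages shows. Its samples of 11.5 and 12.5 dpc overlapped, at signals of at most 37.1. Lhx8 and Nobox were low until 16.5 dpc, but both reached the filter only with the 18.5 dpc arrays. Their low signals before, and so the contrast with Figla, are partly set by the filter. Taf4b, a germ-cell TFIID subunit, had 117.6 and 107.0 at 18.5 dpc, against 124.1 and 129.1 at 16.5 dpc (adjusted p = 0.87). Sohlh2, a helix-loop-helix factor of early oocytes, had 63.2 and 49.0 at 18.5 dpc, against 53.3 and 57.0 at 16.5 dpc (adjusted p = 0.99), and its samples overlapped.

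**Figure D2:**
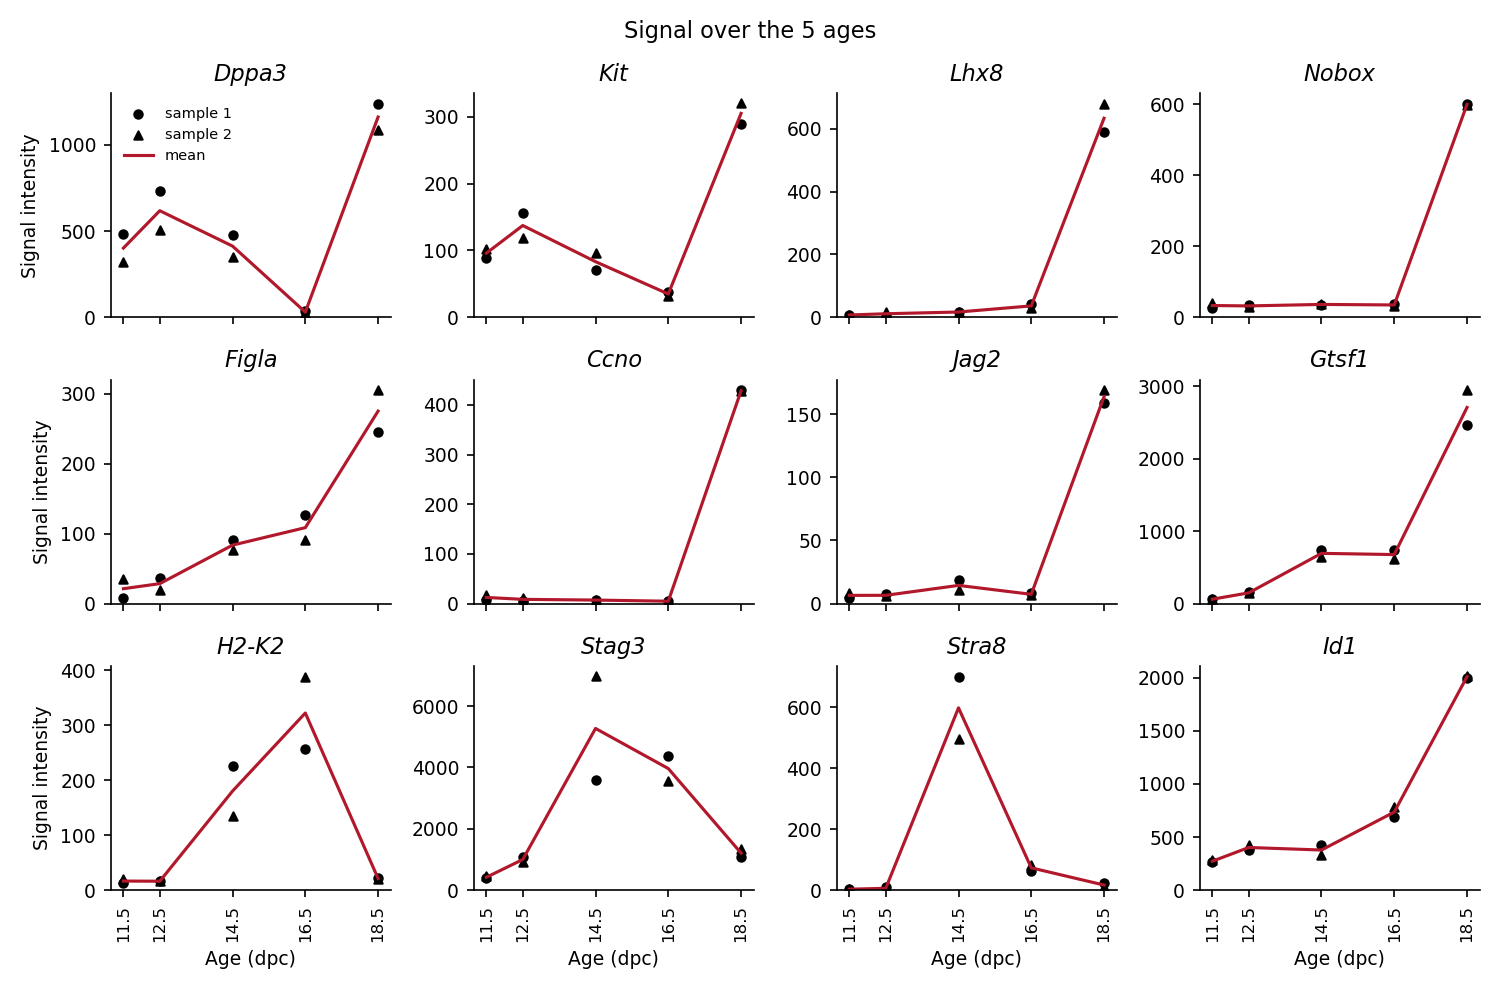
Signal intensity (linear axis, own scale in each panel) against age in dpc for 12 genes at 5 ages. Circles and triangles are samples 1 and 2, and the red line joins the means. Lhx8, Nobox, Ccno and Jag2, which reached the filter only with the 18.5 dpc arrays, are low until 16.5 dpc and high at 18.5 dpc. Dppa3 and Kit are lowest at 16.5 dpc, and H2-K2 peaks at 16.5 dpc.

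The start regions of the transcription factor genes and of their list mates were read from RefSeq promoters (build GRCm38.p6), which cover 250 bases before to 50 bases after the start. Of the 17 oocyte list genes that rose by any of their probe sets, a rule by which 0.683% of all tested genes rose, 13 had an entry among 27025 genes, and Dppa3, Esrp1, Nlrp4g and Zp2 had none. Searched on both strands were the E-box CAGGTG, a sequence class that FIGLA binds, and the NOBOX-binding elements TAATTG and TAATTA. These motifs share no letters at the matches shown. The 13 genes had 16 promoters, and a gene was counted if any of its promoters held the motif. The E-box was found in 3 of the 13 genes, Nobox, Tcl1 and Ybx2, and in 20.2% of all 32851 promoters. Counts of genes and shares of promoters are thus in unlike units. The NOBOX elements were found in 1 of the 13 genes, Nlrp5, and in 12.4% of all promoters. Both Nlrp5 and Ybx2 also had a promoter without either motif. A match is only a description of the letters in that window. Shown, 5′ to 3′ on the gene's strand with the matches in capitals, are the regions of both transcription factors with the largest rises, and of a list gene with each motif. They lie at chr6:43309505-43309804 on the minus strand (Nobox), chr3:154330511-154330810 on the minus strand (Lhx8), chr7:23385639-23385938 on the plus strand (Nlrp5) and chr12:105222688-105222987 on the minus strand (Tcl1).
Nobox: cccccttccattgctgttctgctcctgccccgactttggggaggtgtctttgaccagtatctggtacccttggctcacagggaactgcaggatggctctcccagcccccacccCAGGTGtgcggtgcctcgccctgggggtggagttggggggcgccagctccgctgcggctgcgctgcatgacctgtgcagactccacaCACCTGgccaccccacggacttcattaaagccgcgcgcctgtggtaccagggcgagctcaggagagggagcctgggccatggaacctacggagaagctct
Lhx8: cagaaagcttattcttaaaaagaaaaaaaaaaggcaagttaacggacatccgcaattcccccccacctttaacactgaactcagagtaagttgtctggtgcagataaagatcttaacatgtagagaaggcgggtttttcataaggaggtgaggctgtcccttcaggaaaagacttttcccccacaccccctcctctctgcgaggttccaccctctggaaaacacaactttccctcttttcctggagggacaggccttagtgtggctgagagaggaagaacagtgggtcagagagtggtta
Nlrp5: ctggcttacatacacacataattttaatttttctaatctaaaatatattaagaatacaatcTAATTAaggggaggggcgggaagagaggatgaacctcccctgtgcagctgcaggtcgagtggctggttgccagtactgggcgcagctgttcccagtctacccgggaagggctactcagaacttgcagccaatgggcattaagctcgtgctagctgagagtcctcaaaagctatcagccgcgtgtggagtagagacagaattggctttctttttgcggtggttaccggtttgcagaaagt
Tcl1: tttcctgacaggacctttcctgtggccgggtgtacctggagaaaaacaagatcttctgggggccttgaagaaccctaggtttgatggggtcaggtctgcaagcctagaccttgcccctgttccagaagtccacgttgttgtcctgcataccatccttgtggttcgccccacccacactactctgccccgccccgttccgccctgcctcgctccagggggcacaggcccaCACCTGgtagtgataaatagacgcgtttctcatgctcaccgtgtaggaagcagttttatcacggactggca
The Nobox region held the E-box at 137 and 50 bases before the start, the second match being the reverse strand. The Tcl1 region held it 21 bases before the start, and the Nlrp5 region held TAATTA 189 bases before the start. The Lhx8 region held neither motif.

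The maternal-effect list had the largest median change of the 31 lists, 1.02 on the log2 scale over 18 tested genes. Of these 18 genes 7 rose and none fell. Esrp1 and Nlrp5 among the 7 reached the filter only with the 18.5 dpc arrays, so the median and the sum are partly set by the filter. The summed signal of the 18 probe sets was 9922.5 and 10826 at 18.5 dpc, against 4377.7 and 4437.8 at 16.5 dpc. That sum adds probe sets that are not on a common scale, so bright ones weigh most. Dppa3, also called Stella, which protects maternal DNA methylation after fertilisation, had signals of 1238.4 and 1086.2 at 18.5 dpc, against 33.2 and 25.3 at 16.5 dpc. This was the largest change of a named gene by the rule used (4.71 ± 0.23, adjusted p = 1.4e-06). The Dppa3 transcript was not new at 18.5 dpc, since its signals were between 322.2 and 730.7 at the 3 younger ages and 16.5 dpc was a trough. Both 18.5 dpc samples were above every sample of the other ages.

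Trim71, an RNA-binding repressor and let-7 target also known as Lin-41, had 508.1 and 654.9 at 18.5 dpc, against 113.8 and 17.6 at 16.5 dpc (3.17 ± 0.56, adjusted p = 0.028). At the 3 younger ages the signals of this brighter probe set were between 76.8 and 322.0. A Trim71 probe set on the same array type had 261.5 and 281.9 at 18.5 dpc, against 20.0 and 43.2 at 16.5 dpc (2.64 ± 0.44, adjusted p = 0.020). Its samples at 16.5 dpc differed widely, and the call of the brighter probe set was lost without 16.5 dpc sample 2 or either 18.5 dpc sample, with an adjusted p of up to 0.20. It was also lost in 6 of the 12 other settings, among them log2(signal + 1) and no filter. Esrp1, an epithelial splicing regulator, had 297.0 and 349.8 at 18.5 dpc, against 18.7 and 17.1 at 16.5 dpc (3.32 ± 0.26, adjusted p = 8.0e-05). Gtsf1, a zinc-finger protein of the piRNA pathway, was bright at both ages. It had 2468.3 and 2940.7 at 18.5 dpc, against 733.4 and 619.0 at 16.5 dpc (1.97 ± 0.23, adjusted p = 0.0014). At 14.5 dpc its signals were already 740.9 and 645.0.

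Tcl1, a coactivator of the kinase Akt that supports early cleavage, had 143.6 and 132.2 at 18.5 dpc, against 26.8 and 24.7 at 16.5 dpc (1.88 ± 0.21, adjusted p = 0.0014). Uchl1, a ubiquitin hydrolase abundant in oocytes, had 739.1 and 744.7 at 18.5 dpc, against 210.3 and 255.5 at 16.5 dpc (1.61 ± 0.16, adjusted p = 0.00064). The 11 members that did not pass included 4 with an unadjusted p under 0.05 in the higher direction, and 17 of the 18 members had a change above 0. Zar1, an organiser of maternal RNA storage picked here after its values were seen, had 215.3 and 222.4 at 18.5 dpc, against 177.3 and 263.3 at 16.5 dpc (0.02, adjusted p = 0.99).

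In the Nlrp family, genes of the NOD-like receptor fold of which several are oocyte products, 3 of 9 tested members rose and the other 6 had log2 changes between -0.65 and 0.32. Nlrp5, also called Mater, a subunit of the subcortical maternal complex, had 371.4 and 323.0 at 18.5 dpc, against 8.4 and 59.7 at 16.5 dpc (3.08 ± 0.54, adjusted p = 0.024). Nlrp4f had 158.9 and 196.6 at 18.5 dpc, against 1.3 and 1.9 at 16.5 dpc (3.45 ± 0.52, adjusted p = 0.0095). Nlrp4g had 263.9 and 213.4 at 18.5 dpc, against 25.3 and 9.9 at 16.5 dpc (2.95 ± 0.50, adjusted p = 0.022). All 3 reached the filter only with the 18.5 dpc arrays, so their low signals before (at most 59.7 in the 8 younger samples) are partly set by the filter. Their calls were lost without either 18.5 dpc sample and without 16.5 dpc sample 1, and that of Nlrp4g also without 16.5 dpc sample 2, with an adjusted p of up to 0.14 for Nlrp4f, 0.20 for Nlrp5 and 0.17 for Nlrp4g. Of the 12 other settings, 2 ended the call of Nlrp4f, 2 that of Nlrp5 and 3 that of Nlrp4g, log2(signal + 1) among them for each. Nlrp4f and Nlrp4g are close relatives, and cross-hybridisation between them was not tested.

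Of the zona pellucida and oocyte surface list 1 of 9 tested genes rose, Kit, the receptor through which Kit ligand from supporting cells acts on oocytes. Kit had signals of 289.7 and 320.5 at 18.5 dpc, against 37.5 and 32.0 at 16.5 dpc (2.66 ± 0.20, adjusted p = 7.3e-05). At the 3 younger ages Kit lay between 70.2 and 155.6, so 16.5 dpc was its lowest age and 18.5 dpc its highest. Kitl, which encodes the ligand, had 1380.6 and 1550.4 at 18.5 dpc, against 1586.1 and 1733.2 at 16.5 dpc (-0.18 ± 0.15, adjusted p = 0.66). The receptor therefore had a called change and the ligand did not, and the difference between their changes was not tested.

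The zona genes were near the lower end of measurement. The brighter of the Zp2 probe sets had 105.8 and 95.0 at 18.5 dpc, against 62.2 and 55.1 at 16.5 dpc (0.64 ± 0.26, adjusted p = 0.30). The dimmer Zp2 probe set, picked after its values were seen, had 77.0 and 81.9 at 18.5 dpc, against 5.0 and 3.8 at 16.5 dpc (2.23 ± 0.39, adjusted p = 0.028). The probe sets of this gene, which encodes a zona protein that binds sperm, thus gave the same direction with different sizes. Zp3 did not reach the signal filter, with 34.1 and 33.9 at 18.5 dpc, against 14.9 and 17.6 at 16.5 dpc, and neither did Zp1. Gdf9, an oocyte growth factor, had 141.4 and 164.3 at 18.5 dpc, against 151.9 and 101.7 at 16.5 dpc, and its samples overlapped (adjusted p = 0.66). Its partner Bmp15 had 65.6 and 53.0 at 18.5 dpc, against 39.9 and 56.7 at 16.5 dpc (adjusted p = 0.83).

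The list on meiotic arrest and oocyte maturation had 3 rises among 26 tested genes, Ccno, Ybx2 and Cks2, and a median of 0.05. Ccno, a cyclin known for its part in making multiciliated cells, had 429.2 and 427.8 at 18.5 dpc, against 4.6 and 5.0 at 16.5 dpc (4.42 ± 0.43, adjusted p = 0.00043). No sample of the 3 younger ages was above 16.6. Ccno and Ybx2 reached the filter only with the 18.5 dpc arrays, so their low signals before are partly set by the filter. Ybx2, also called Msy2, a Y-box protein that coats and stabilises stored messenger RNA of germ cells, had 238.9 and 237.9 at 18.5 dpc, against 24.8 and 43.0 at 16.5 dpc (2.37 ± 0.29, adjusted p = 0.0023). Its adjusted p was 0.054 without 18.5 dpc sample 2, and the call was also lost without 18.5 dpc sample 1. Cks2, a small partner of cyclin-dependent kinases needed in meiosis, had 1171.2 and 1284.4 at 18.5 dpc, against 453.5 and 494.2 at 16.5 dpc (1.34 ± 0.14, adjusted p = 0.0011). The Cks2 transcript was not new at 18.5 dpc, since its signals were between 750.1 and 1065.5 at the 3 younger ages.

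**Figure D3:**
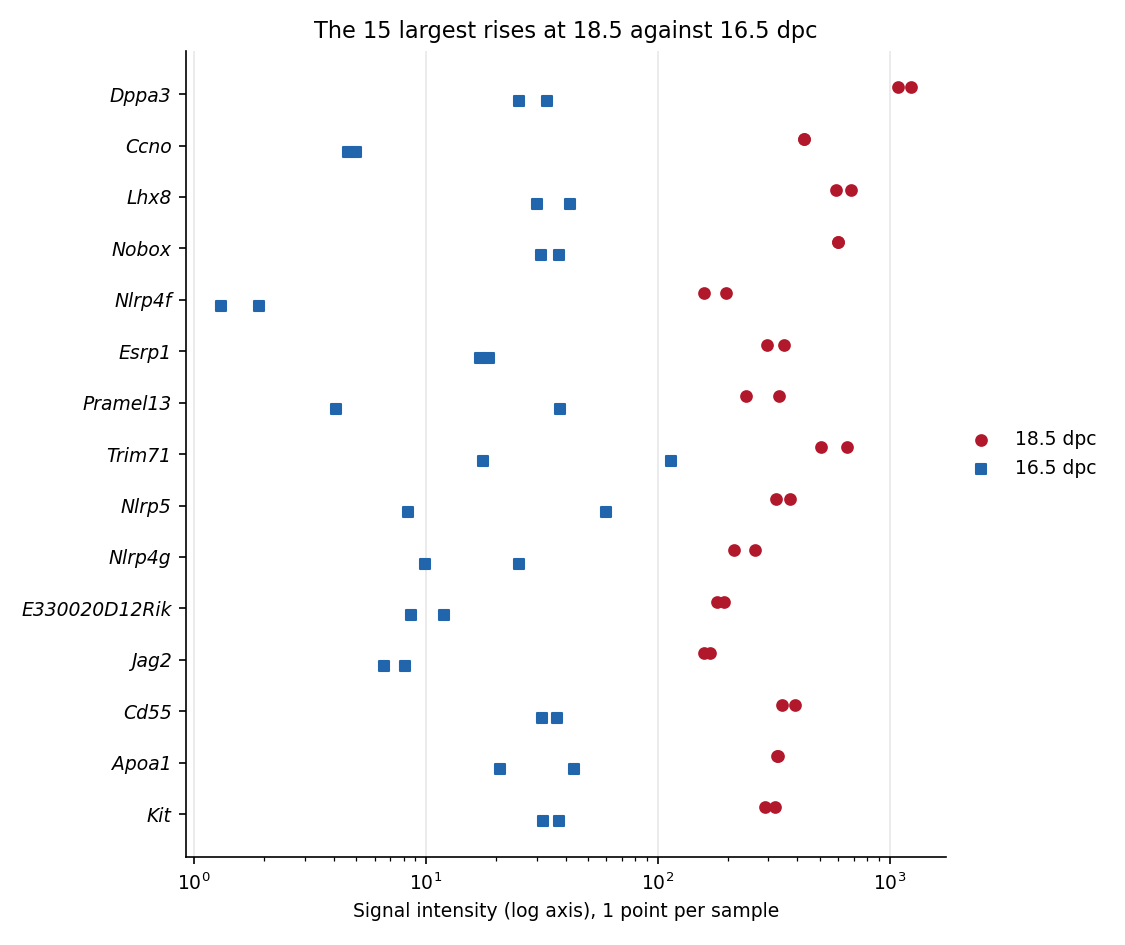
Signal intensity (log axis) of the 15 named genes with the largest called rises, 1 point per sample (red circles, 18.5 dpc; blue squares, 16.5 dpc). The 18.5 dpc points lie between 158.7 and 1238.4 and the 16.5 dpc points at or under 113.8. The naming rule required that the ages do not overlap within a gene.

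Other large rises by the naming rule were outside the oocyte lists. Jag2, a ligand of Notch receptors, had 158.7 and 168.8 at 18.5 dpc, against 8.1 and 6.6 at 16.5 dpc (2.94 ± 0.33, adjusted p = 0.0014). Pramel13, a member of the PRAME-like family, had 332.5 and 239.7 at 18.5 dpc, against 38.0 and 4.1 at 16.5 dpc (3.18 ± 0.47, adjusted p = 0.0085). Cd55, which speeds the decay of complement convertases on the cell surface, had 344.4 and 389.2 at 18.5 dpc, against 31.8 and 36.9 at 16.5 dpc (2.93 ± 0.40, adjusted p = 0.0038). The array A probe set of Cd55 had 161.6 and 170.5 at 18.5 dpc, against 27.5 and 17.2 at 16.5 dpc (2.26 ± 0.27, adjusted p = 0.0023), and so moved alike. Both Cd55 and Jag2 were thus at low signal in every sample before 18.5 dpc, with at most 75.3 for the array B probe set of Cd55 and 18.4 for Jag2. These probe sets and that of E330020D12Rik reached the filter only with the 18.5 dpc arrays, so their low signals before are partly set by the filter. E330020D12Rik, a transcript with no role given here, had 179.6 and 192.7 at 18.5 dpc, against 11.9 and 8.6 at 16.5 dpc (2.95 ± 0.48, adjusted p = 0.016). The calls of Pramel13, Cd55 and E330020D12Rik were lost without either 18.5 dpc sample and without at least 1 of the 16.5 dpc samples, with adjusted p up to 0.13 (Pramel13, without 18.5 dpc sample 1), 0.076 (Cd55, without 18.5 dpc sample 2) and 0.14 (E330020D12Rik, without 18.5 dpc sample 1). The call of E330020D12Rik was also lost with log2(signal + 1).

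The Notch pathway carries signals between pregranulosa cells and oocytes during cyst breakdown. Of its 18 tested genes 2 rose, where 0.588% of all tested genes rose, and the median was 0.03. Beside Jag2 this was Hes1, a transcriptional repressor switched on by Notch, with 400.3 and 451.3 at 18.5 dpc, against 192.2 and 218.4 at 16.5 dpc (1.00 ± 0.17, adjusted p = 0.020). The Hes1 call was lost without any 1 of these 4 samples, with an adjusted p of up to 0.19 without 18.5 dpc sample 2. Jag1, another Notch ligand, had 119.2 and 116.6 at 18.5 dpc, against 89.2 and 69.7 at 16.5 dpc (0.50 ± 0.32, adjusted p = 0.57), and an array C probe set of it had the opposite sign (-0.65 ± 0.44, adjusted p = 0.58). The receptor gene Notch2 had 158.4 and 175.1 at 18.5 dpc, against 173.4 and 158.9 at 16.5 dpc, with overlapping samples (0.00 ± 0.22, adjusted p = 0.997).

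Among 38 tested genes of TGF-beta, activin and BMP signalling, with a median of -0.14, Id1 rose and Smad5 fell. Id1, an inhibitor of helix-loop-helix factors that BMP signals induce, had 2002.4 and 2021.6 at 18.5 dpc, against 685.0 and 785.2 at 16.5 dpc (1.44 ± 0.16, adjusted p = 0.0014). It had also been called higher at 16.5 than at 14.5 dpc (0.94, adjusted p = 0.023). Smad5, which relays BMP signals to the nucleus, had 382.8 and 403.1 at 18.5 dpc, against 836.6 and 695.1 at 16.5 dpc (-0.93 ± 0.17, adjusted p = 0.031). Of the 3 tested probe sets of Smad5 this 1 was called, and the other 2 had the same sign without passing. Its call was lost without the intensity trend and without any 1 of these 4 samples or of the 12.5 dpc samples, with an adjusted p of up to 0.26 without 18.5 dpc sample 1. Of 21 tested genes of follicle activation and PI3K signalling 2 rose, Kit and Foxo3, both described above, and the median was -0.08.

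Genes of primordial germ cells and pluripotency had 3 rises among 21 tested members, Dppa4, Tcl1 and Trim71, with a median of 0.02. Dppa4, a nuclear protein of pluripotent cells, had 146.9 and 139.4 at 18.5 dpc, against 45.8 and 25.2 at 16.5 dpc (1.66 ± 0.20, adjusted p = 0.0023). Its signals at 12.5 dpc were 478.8 and 497.1, so the 18.5 dpc level stayed under that of the younger gonads. Pou5f1, the pluripotency factor Oct4, had 37.3 and 35.6 at 18.5 dpc, against 30.7 and 21.7 at 16.5 dpc (0.32 ± 0.24, adjusted p = 0.62), and Nanog had 33.3 and 46.2 at 18.5 dpc, against 30.0 and 15.3 at 16.5 dpc (0.55 ± 0.27, adjusted p = 0.42). Both had been above 100 in every sample of 11.5 and 12.5 dpc.

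Germ-cell RNA-binding and piRNA genes had 1 rise among 20 tested members, Gtsf1, with a median of 0.26. The germ cell markers Ddx4 and Dazl did not pass. Ddx4, the germ-cell RNA helicase Vasa, had 327.1 and 355.4 at 18.5 dpc, against 274.8 and 294.3 at 16.5 dpc (0.25 ± 0.23, adjusted p = 0.71). The array C probe set of Ddx4 pointed the other way, with 143.4 and 126.3 at 18.5 dpc, against 169.0 and 176.6 at 16.5 dpc (-0.33 ± 0.34, adjusted p = 0.74), so no direction can be given for it. Dazl, an RNA-binding translational regulator, had 816.5 and 822.2 at 18.5 dpc, against 640.3 and 735.5 at 16.5 dpc (0.25 ± 0.42, adjusted p = 0.85). Elavl2, a neuronal-type RNA-binding protein picked after its values were seen, was called by probe sets on arrays A and B other than its brightest. The array B probe set had 844.1 and 852.5 at 18.5 dpc, against 223.3 and 260.4 at 16.5 dpc (1.75 ± 0.18, adjusted p = 0.00070).

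Genes of the meiotic prophase went the other way in small numbers. Across 5 lists on meiotic entry, chromosome axis, synaptonemal complex, recombination and telomere tethering, 2 of 44 tested genes fell and none rose, with a median of -0.21. Over all tested genes 0.254% fell and 0.588% rose. Of the 44 genes 21 had both 18.5 dpc samples under both 16.5 dpc samples and 10 had both above, where 23.8% of all tested probe sets were lower and 23.0% higher in that sense. Stag3, a cohesin subunit used only in meiosis, had 1068.1 and 1343.7 at 18.5 dpc, against 4375.0 and 3556.3 at 16.5 dpc (-1.71 ± 0.28, adjusted p = 0.019). The array A probe set of Stag3 had 88.0 and 91.8 at 18.5 dpc, against 226.0 and 250.5 at 16.5 dpc (-1.26 ± 0.21, adjusted p = 0.021). Stra8, the gatekeeper of meiotic entry induced by retinoic acid, had 23.0 and 9.7 at 18.5 dpc, against 62.4 and 83.1 at 16.5 dpc (-1.48 ± 0.30, adjusted p = 0.048). Most of its decline came before, since it had 699.2 and 496.4 at 14.5 dpc.

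The Stag3 call was lost without any 1 of the 18.5 or 16.5 dpc samples, with an adjusted p of up to 0.20 without 18.5 dpc sample 1. The Stra8 call was lost without any 1 sample of 12.5 to 18.5 dpc, with up to 0.26 without 18.5 dpc sample 2. Of the 12 other settings, 8 ended the Stra8 call, among them median scaling and the replicate block, and 2 ended that of Stag3. Dmc1, the meiotic recombinase, had 49.6 and 38.0 at 18.5 dpc, against 105.4 and 106.9 at 16.5 dpc, apart but not called (-1.04 ± 0.27, adjusted p = 0.11). Both Dmc1 samples of 18.5 dpc were above the 11.5 and 12.5 dpc samples, whose signals were between 13.9 and 33.0. Spo11, which makes the breaks that start recombination, had 906.8 and 1441.7 at 18.5 dpc, against 1916.2 and 1584.0 at 16.5 dpc (-0.60 ± 0.26, adjusted p = 0.34). Sycp1, the transverse filament of the synaptonemal complex, had 924.9 and 881.9 at 18.5 dpc, against 609.9 and 747.5 at 16.5 dpc (0.41 ± 0.23, adjusted p = 0.49). Rec8, a meiotic cohesin, had 734.4 and 677.2 at 18.5 dpc, against 605.0 and 941.2 at 16.5 dpc (-0.10 ± 0.25, adjusted p = 0.91). Of the prophase genes named here, Stag3 and Stra8 were the members that passed.

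Sycp3, an axis protein, was read by 1 tested probe set whose 16.5 dpc samples disagreed. It had 92.8 and 144.1 at 18.5 dpc, against 109.5 and 9.7 at 16.5 dpc (1.22 ± 0.66, adjusted p = 0.47).

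**Figure D4:**
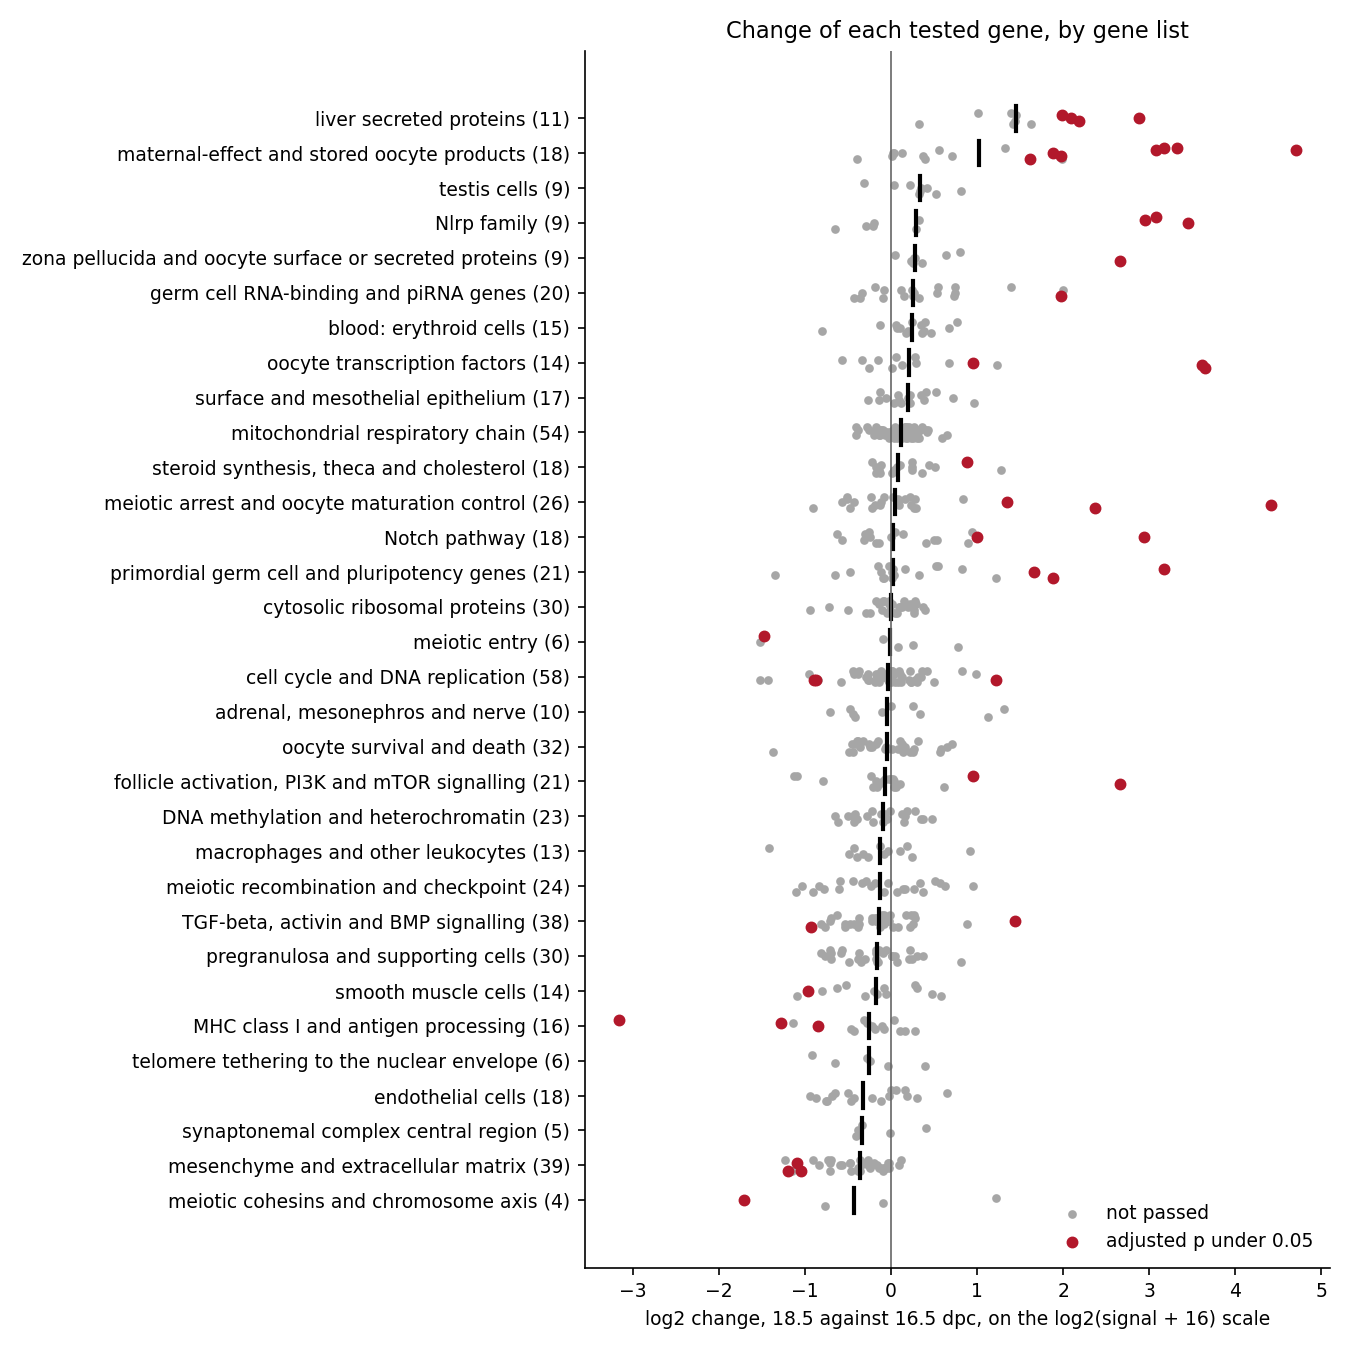
Log2 change at 18.5 against 16.5 dpc of every tested gene in 31 gene lists and in a list of liver proteins made after the values were seen, with the number of tested genes in brackets. Red points passed an adjusted p of 0.05, grey points did not, and black bars are list medians, highest in the liver list (1.45) and the maternal-effect list (1.02) and lowest in the cohesin and axis list (-0.43).

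The supporting cells of the ovary showed no called change among the genes listed for them. None of 30 tested pregranulosa genes passed, with a median of -0.16, and 1 had an unadjusted p under 0.05 in the higher and 5 in the lower direction. Foxl2, the factor that keeps granulosa identity, had 667.4 and 793.3 at 18.5 dpc, against 792.5 and 858.4 at 16.5 dpc (-0.18 ± 0.31, adjusted p = 0.86). Fst, the activin antagonist follistatin, had 234.8 and 216.0 at 18.5 dpc, against 317.2 and 443.6 at 16.5 dpc (-0.70 ± 0.36, adjusted p = 0.44), and a further Fst probe set on array B had 0.03 (adjusted p = 0.98). The samples of these genes were apart for Fst and overlapped for Foxl2. Inha, the alpha subunit of inhibin, had 72.6 and 80.6 at 18.5 dpc, against 183.9 and 115.3 at 16.5 dpc (-0.81 ± 0.28, adjusted p = 0.23). Nr5a1, a nuclear receptor of steroid-making and supporting cells, had 556.1 and 557.3 at 18.5 dpc, against 839.2 and 840.3 at 16.5 dpc (-0.58 ± 0.23, adjusted p = 0.30). Both Inha and Nr5a1 had lower signals in both 18.5 dpc samples without passing the test. Amh, a marker of male supporting cells at these ages, stayed under the filter, with 13.3 and 21.7 at 18.5 dpc, against 17.0 and 15.7 at 16.5 dpc.

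Genes of mesenchyme and extracellular matrix were lower as far as they were called, 3 of 39 tested, and none rose. Over all tested genes 0.254% fell and 0.588% rose. The median of the 39 was -0.36, and 2 of them had a change above 0. An unadjusted p under 0.05 was found for 12 of the 39 in the lower direction and none in the higher. Of all tested probe sets 13.1% had such a p in either direction. The summed signal of the 39 probe sets was 13671 and 14760 at 18.5 dpc, against 23114 and 17812 at 16.5 dpc. At 14.5 dpc it was 13523 and 15073, so 16.5 dpc was above both of its neighbouring ages. Mfap4, a microfibril protein, had 58.3 and 50.1 at 18.5 dpc, against 167.6 and 125.6 at 16.5 dpc (-1.20 ± 0.22, adjusted p = 0.030). Maf, a leucine-zipper transcription factor, had 352.5 and 367.1 at 18.5 dpc, against 899.1 and 681.2 at 16.5 dpc (-1.09 ± 0.22, adjusted p = 0.046). Fbn2, the microfibril component fibrillin-2, had 557.0 and 502.2 at 18.5 dpc, against 934.1 and 1319.6 at 16.5 dpc (-1.05 ± 0.20, adjusted p = 0.040). Maf and Fbn2 had 4 tested probe sets each. For both genes 1 was called, and the other 3 had the same sign without passing.

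Of 14 tested smooth muscle genes Cald1, the actin-binding protein caldesmon, fell, where 0.254% of all tested genes fell. It had 527.1 and 532.1 at 18.5 dpc, against 1022.5 and 1072.4 at 16.5 dpc (-0.96 ± 0.19, adjusted p = 0.037). Of 3 tested Cald1 probe sets this 1 was called, and the other 2 had the same sign without passing. The summed signal of the 14 probe sets was 3391.9 and 3596.3 at 18.5 dpc, against 4729.2 and 4434.8 at 16.5 dpc. None of 18 tested endothelial genes passed, with a median of -0.33, and their sum was 1777.1 and 1899.7 at 18.5 dpc, against 2114.6 and 2156.3 at 16.5 dpc. These calls were fragile. Across the matrix, muscle, endothelial and MHC lists 7 genes fell, but 1 was called without 18.5 dpc sample 2, 2 without 18.5 dpc sample 1, 16.5 dpc sample 1 or either 12.5 dpc sample, 3 without 16.5 dpc sample 2 and 4 without either 14.5 dpc sample. Of the 12 other settings, 5 ended the call of Maf, 3 that of Fbn2, 3 that of Cald1 and 2 that of Mfap4.

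MHC class I genes, which present peptides to T cells, made up the rest, with 3 falls among 16 tested genes and a median of -0.25. Over all tested genes 0.254% fell. H2-K2 had 21.9 and 20.1 at 18.5 dpc, against 255.9 and 388.0 at 16.5 dpc (-3.16 ± 0.28, adjusted p = 0.00026). Its signals at 11.5 and 12.5 dpc were at most 20.6, so the gene was high only at 14.5 and 16.5 dpc. H2-K1 had 296.3 and 284.7 at 18.5 dpc, against 695.6 and 757.6 at 16.5 dpc (-1.28 ± 0.16, adjusted p = 0.0032), and its call was lost in 1 omission, with an adjusted p of 0.062 without 18.5 dpc sample 2. A dimmer H2-K1 probe set had 54.2 and 57.2 at 18.5 dpc, against 77.9 and 51.2 at 16.5 dpc (-0.15 ± 0.28, adjusted p = 0.87), and did not show the fall. Another was lower without passing, with 12.4 and 53.9 at 18.5 dpc, against 139.0 and 100.9 at 16.5 dpc (-1.60 ± 0.37, adjusted p = 0.087). H2-D1 had 229.1 and 228.7 at 18.5 dpc, against 392.4 and 463.2 at 16.5 dpc (-0.85 ± 0.17, adjusted p = 0.049). A further H2-D1 probe set had 213.4 and 223.8 at 18.5 dpc, against 492.8 and 520.8 at 16.5 dpc (-1.16 ± 0.17, adjusted p = 0.0099). The call of the brighter H2-D1 probe set was lost without any 1 sample of 12.5 to 18.5 dpc, with an adjusted p of up to 0.28 without 18.5 dpc sample 1, and in 5 of the 12 other settings. The H2-K2, H2-D1 and brighter H2-K1 probe sets carry a suffix of the platform for sets that can match several related genes, and which of the family they read was not tested. The same suffix is on the probe sets given for Fbn2, Mfap4, Nlrp4f, Nlrp4g and Hbb-y. It is also on the array C probe set of Stag3 and the brighter ones of Zp2 and Apoa1. B2m, the shared light chain, had 342.5 and 324.6 at 18.5 dpc, against 486.4 and 421.8 at 16.5 dpc (-0.42, adjusted p = 0.50), and was picked after its values were seen.

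**Figure D5:**
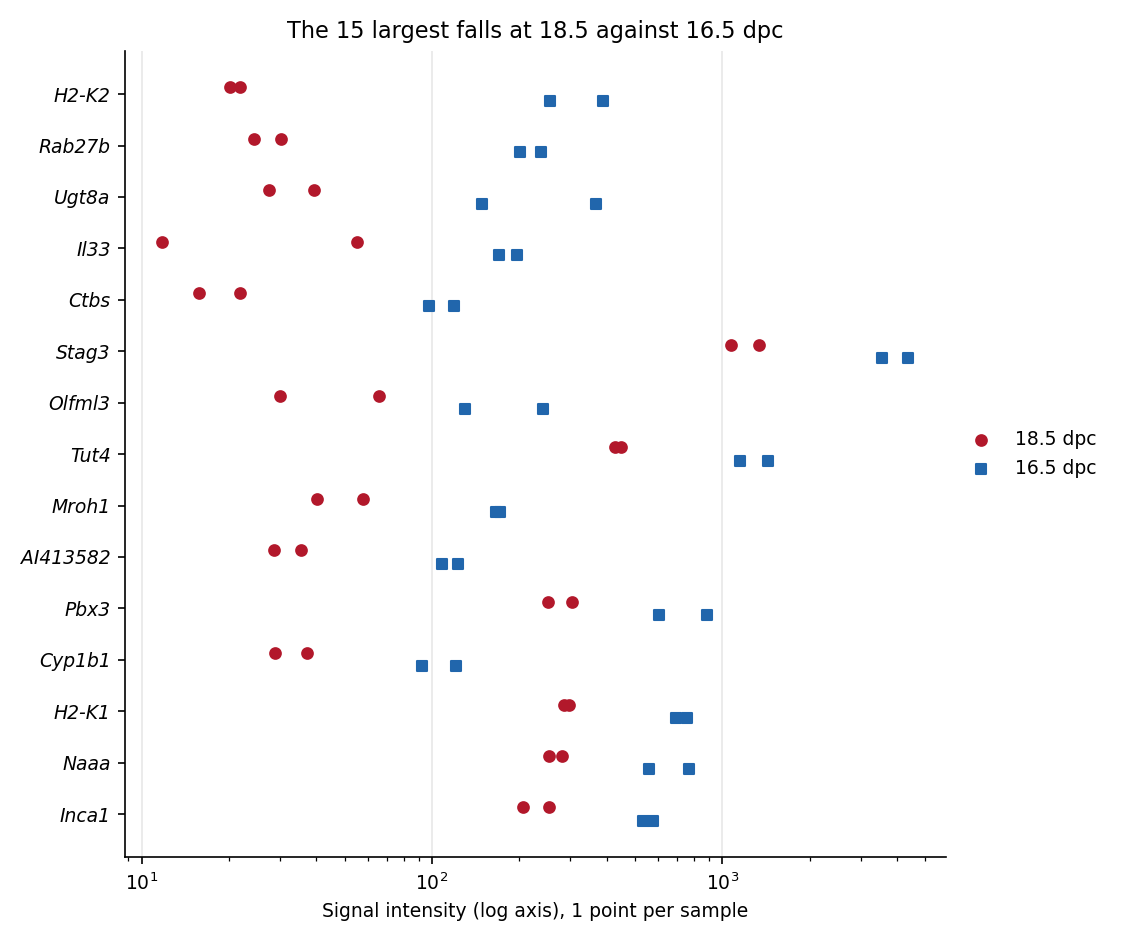
Signal intensity (log axis) of the 15 named genes with the largest called falls, 1 point per sample (red circles, 18.5 dpc; blue squares, 16.5 dpc). Within each gene both 18.5 dpc points lie left of both 16.5 dpc points, as the naming rule required, and H2-K2 shows the widest gap.

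The other falls named by the rule came from genes with unlike roles. Rab27b, a GTPase of vesicle release, had 30.2 and 24.4 at 18.5 dpc, against 200.5 and 238.5 at 16.5 dpc (-2.44 ± 0.39, adjusted p = 0.013). Il33, a cytokine of the interleukin-1 family, had 55.0 and 11.8 at 18.5 dpc, against 169.6 and 197.1 at 16.5 dpc (-2.16 ± 0.38, adjusted p = 0.025). Tut4, which adds uridines to the tails of messenger RNAs and of let-7 precursors, had 427.2 and 448.0 at 18.5 dpc, against 1433.9 and 1150.1 at 16.5 dpc (-1.52 ± 0.19, adjusted p = 0.0023). Its signals at the 3 younger ages were between 1036.9 and 1812.4, so 18.5 dpc stood alone as low. Pbx3, a homeobox partner of Hox proteins, had 250.5 and 303.1 at 18.5 dpc, against 888.1 and 606.1 at 16.5 dpc (-1.36 ± 0.27, adjusted p = 0.048). Another Pbx3 probe set had 99.4 and 120.1 at 18.5 dpc, against 315.3 and 218.2 at 16.5 dpc (-1.15 ± 0.20, adjusted p = 0.028). Of the 12 other settings tried, 4 ended the call of Il33 and 4 that of the brighter Pbx3 probe set.

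Also called by the rule were falls of Ugt8a, which makes galactosylceramide, the lysosomal enzyme gene Ctbs, Olfml3, Mroh1, AI413582, the cytochrome P450 gene Cyp1b1, Naaa, which breaks down N-acylethanolamines, and the cyclin A1 inhibitor Inca1, at log2 changes of -2.35 to -1.23. Naaa rests on its array B probe set, with 253.7 and 281.1 at 18.5 dpc, against 561.6 and 767.5 at 16.5 dpc (-1.25 ± 0.22, adjusted p = 0.026). Its array C probe set had 328.1 and 156.4 at 18.5 dpc, against 187.8 and 252.3 at 16.5 dpc (0.06 ± 0.38, adjusted p = 0.97), and did not show the fall. Further probe sets of AI413582 and Mroh1 were not called either, with changes of -0.04 and -0.13. The calls of Ugt8a and Olfml3 were each lost in 5 of the 12 other settings, that of AI413582 in 7, that of Ctbs in 3 and that of Naaa in 1. Of the 15 largest falls H2-K2 alone was called with every sample left out, and the highest adjusted p of the others in an omission lay between 0.059 for Tut4 and 0.34 for Olfml3.

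Cell cycle genes were mixed, with 1 rise and 2 falls among 58 tested members and a median of -0.03. Prc1, which bundles microtubules in the spindle midzone, had 392.6 and 344.0 at 18.5 dpc, against 175.5 and 126.7 at 16.5 dpc (1.21 ± 0.19, adjusted p = 0.015). Top2a, a DNA topoisomerase of dividing cells, had 134.8 and 134.2 at 18.5 dpc, against 269.3 and 248.2 at 16.5 dpc (-0.87 ± 0.17, adjusted p = 0.044). Cenpf, a kinetochore protein, had 209.2 and 212.1 at 18.5 dpc, against 405.0 and 408.4 at 16.5 dpc (-0.90 ± 0.18, adjusted p = 0.043). The call of Prc1 was lost without either 18.5 dpc sample or 16.5 dpc sample 2, and those of Top2a and Cenpf without any 1 of the 4 samples compared or of the 12.5 dpc samples, with an adjusted p of up to 0.16 for Prc1, 0.26 for Top2a and 0.28 for Cenpf, all without 18.5 dpc sample 1. Of the 12 other settings, 4 ended the call of Top2a and 5 that of Cenpf. In steroid and cholesterol synthesis 1 of 18 tested genes rose, Fdft1, which makes squalene, with 266.0 and 254.3 at 18.5 dpc, against 147.9 and 119.9 at 16.5 dpc (0.89 ± 0.16, adjusted p = 0.035). The Fdft1 call was lost without the intensity trend and without any 1 sample of 12.5 to 18.5 dpc, with an adjusted p of up to 0.26 without 18.5 dpc sample 1. No gene passed among 32 of oocyte survival and death, 23 of DNA methylation, 54 of the respiratory chain or 30 ribosomal proteins.

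Transcripts of some proteins that the liver secretes also rose. A list of 25 such genes, written after their values were seen, had 24 on the arrays and 11 tested members. Of the 11 members 4 rose, Apoa1, Alb, Mbl2 and C8b, and 0 fell, where 0.588% of all tested genes rose and 0.254% fell. The median of the list was 1.45. The summed signal of the 11 probe sets was 2098.9 and 2029.5 at 18.5 dpc, against 489.3 and 617.9 at 16.5 dpc, and it was 617.8 and 804.6 at 14.5 dpc. Apoa1, the main protein of high-density lipoprotein, had 330.6 and 327.0 at 18.5 dpc, against 20.9 and 43.4 at 16.5 dpc (2.88 ± 0.53, adjusted p = 0.031). A further Apoa1 probe set on array A had 106.8 and 124.1 at 18.5 dpc, against 9.4 and 10.4 at 16.5 dpc (2.34 ± 0.38, adjusted p = 0.018). Both Apoa1 probe sets reached the filter only with the 18.5 dpc arrays, so their low signals before are partly set by the filter. Alb, serum albumin, had 723.6 and 706.5 at 18.5 dpc, against 127.0 and 165.7 at 16.5 dpc (2.18 ± 0.31, adjusted p = 0.0075). These 3 probe sets were high in both 18.5 dpc samples, and the call of the brighter Apoa1 probe set was lost without any 1 of the 4 samples compared, with an adjusted p of up to 0.24 without 16.5 dpc sample 1, and in 3 of the 12 other settings. Whether cells of another tissue were in the 18.5 dpc pools was not tested, and the part of these transcripts in the oocyte results was not tested either.

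The lists of erythroid cells, macrophages and other leukocytes, surface epithelium, testis cells, and adrenal, mesonephric and nerve cells gave no called gene. The summed signal of 15 erythroid genes was 25736 and 26041 at 18.5 dpc, against 19615 and 21609 at 16.5 dpc. That of 13 macrophage and leukocyte genes was 1757.3 and 1501.2 at 18.5 dpc, against 1820.1 and 1571.5 at 16.5 dpc. That of 17 surface and mesothelial genes was 11198 and 10587 at 18.5 dpc, against 8552.3 and 10150 at 16.5 dpc. That of 9 testis genes was 2599.1 and 2468.1 at 18.5 dpc, against 2133.7 and 2004.5 at 16.5 dpc, with 8 of the 9 changes above 0 and a median of 0.33. That of 10 adrenal, mesonephric and nerve genes was 1684.3 and 1784.9 at 18.5 dpc, against 1536.7 and 1360.5 at 16.5 dpc, with 5 of the 10 changes above 0 and a median of -0.05. The erythroid, surface and mesothelial, testis and adrenal sums were thus higher in both 18.5 dpc samples, although no member was called. The mesonephric markers Pax2 and Pax8 and the testis markers Insl3 and Cyp17a1 did not reach the filter, with signals of at most 42.1 in the samples of both ages. The part of these cells in the results was not tested.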

How the data were processed

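Signal intensities of pooled mouse ovaries at 5 ages, 2 samples an age, were deposited as 1 value per probe set and array, and the authors had scaled them to a mean of 125, per the labels. Which software computed them was not given in the sources used here. The mean after trimming 2% of values at each end, computed from the files, was close to 125 on each array. The 198 control probe sets were left out, and gene names came from the platform annotation where a probe set had exactly 1 symbol (29131 of 36701 probe sets). Checked against RefSeq gene records, none of these symbols changed.

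Each array type was fitted with limma 3.58.1 in R 4.3.3 (lmFit with the 5 ages as groups, then eBayes with an intensity trend) on log2(signal + 16), which left 5 residual degrees of freedom per probe set. Each log2 change has the fitted standard error, and the number of arrays limits the precision. The comparisons were 18.5 against 16.5 dpc, 16.5 against 14.5 dpc, and the difference between these changes. The procedure was also run on simulated data, with independent normal noise and known changes at 18.5 dpc placed only in brighter probe sets. That run did not cover changes in dim probe sets, and no result here rests on it.

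Named by rule were the 15 largest rises and 15 largest falls among called genes whose ages did not overlap and whose brighter age averaged 100 or more. The rule added up to 6 called members of each of the 31 lists, a set of well-known ovary genes, and up to 3 genes each way with the largest called difference of successive changes. The members and lists were chosen with earlier results of these data known. Of 928 list entries 917 matched a gene symbol, 8 a synonym, and 3 did not match. The liver list, and the genes named as picked after their values were seen, fall outside that rule. So do Lmo7, Gdpd1, Mat2b and Lsm14b, named because they were called under every setting. The alternatives were other pseudocounts, filters, scalings, spread estimates and p adjustments, fewer ages, a replicate block, another probe set per gene, and each sample left out in turn. Same-numbered samples of 18.5 and 16.5 dpc did not deviate together (correlation of deviations -0.02 over all probe sets), so the numbers were not taken as pairs.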

Additional observations from a re-analysis of the deposited data

Results flagged for a closer look

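For 49 probe sets (0.197% of those tested) the change at 18.5 against 16.5 dpc differed from the change at 16.5 against 14.5 dpc by limma's test of the difference itself (adjusted p under 0.05), 38 upward (0.153%) and 11 downward (0.0443%). The changes share the 16.5 dpc arrays, so a high or low reading there moves them in opposite directions. Among the named genes 14 were in this group.

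The difference was 7.938 on the log2 scale for Dppa3, which had been called lower at 16.5 than at 14.5 dpc (-3.23, adjusted p = 3.5e-05) before its rise at 18.5 dpc. It was 3.884 for Dppa4, which had also been called lower at 16.5 dpc (-2.23, adjusted p = 0.00019), and 3.617 for Kit, which had not (-0.96, adjusted p = 0.052). The 16.5 dpc samples of these germ-cell genes were under all samples of the other 4 ages. It was 2.104 for Tcl1 and 2.017 for Cks2, whose 16.5 dpc means were also their lowest. It was 4.569 for Ccno, 3.68 for Esrp1, 3.313 for Jag2 and 2.98 for Lhx8, which had no called change at 16.5 against 14.5 dpc.

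Hbb-y, an embryonic globin, had a difference of 4.371 from the interval before. Its signals were 617.8 and 600.0 at 18.5 dpc, against 486.9 and 435.0 at 16.5 dpc, and its 14.5 dpc samples had 7712.1 and 7288.3. In the other direction H2-K2 had -3.961 and H2-K1 -1.761, both highest at 16.5 dpc. Mfap4 had -2.314 and Kcp, which encodes a BMP-binding secreted protein, -2.674. Kcp had 203.2 and 248.6 at 18.5 dpc, against 365.2 and 384.7 at 16.5 dpc, its 14.5 dpc samples had 88.7 and 78.3, and its last step was not called (adjusted p = 0.27).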

How the results depend on the processing

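The counts of calls moved with the processing more than their direction did, since rises outnumbered falls under every alternative run. With each sample left out in turn the number changed at 18.5 against 16.5 dpc was 33 to 242 (higher 23 to 164, lower 2 to 79). Listed genes called were 14 to 41 (34 with all samples), oocyte list genes that rose 10 to 17, and matrix, muscle, endothelial and MHC list genes that fell 1 to 8. Differences between successive changes were 14 to 142, and calls for 16.5 against 14.5 dpc 30 to 564 (171 with all samples). With log2(signal + 1) there were 88 changed, 62 higher, 26 lower and 3 matrix, muscle, endothelial and MHC genes. Without the filter there were 22 lower, 2 such genes, and 101 for 16.5 against 14.5 dpc. Without the intensity trend there were 23 lower, 3 such genes, and 76 for 16.5 against 14.5 dpc. The difference of changes gave 78 with log2(signal + 64), 77 with quantile normalization and 75 with adjustment within array types. A fit of 14.5, 16.5 and 18.5 dpc alone gave 355 for 16.5 against 14.5 dpc. With the replicate number as a block, 126 probe sets changed, 4 of the matrix, muscle, endothelial and MHC genes fell, and the difference gave 28. The causes were not tested.

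Directions that turned were all of genes that did not pass, except Naaa. Naaa had 0.059 with plain probe sets first. Sohlh2 had -0.0079 with median scaling and -0.071 with quantile normalization. With each sample left out in turn Sohlh2 ranged from -0.13 to 0.16, Rec8 from -0.41 to 0.22, Cdkn1b from -0.37 to 0.18 and Notch2 from -0.062 to 0.070.

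With 2 samples an age, a missed threshold does not show that a gene stayed level.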

Other observations

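Among the probe sets with no single gene symbol, 14 rose and 6 fell. Of these, 3 with high signals at both ages are given here. An array C probe set had 10909.1 and 11917.5 at 18.5 dpc, against 2226.0 and 2422.1 at 16.5 dpc (log2 change 2.29 ± 0.37 SE, limma adjusted p = 0.016). An array A probe set had 7925.6 and 6885.3 at 18.5 dpc, against 1607.6 and 1989.8 at 16.5 dpc (2.04 ± 0.27, adjusted p = 0.0039). A further array C probe set had 4804.9 and 5120.5 at 18.5 dpc, against 928.6 and 1129.3 at 16.5 dpc (2.26 ± 0.25, adjusted p = 0.0014). The means of these 3 were under 430 at the 3 younger ages, so they climbed in both of the last intervals. They were picked after their values were seen.

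Of the 125 genes called by any probe set, 52 had more than 1 tested probe set, 10 of these had more than 1 called, and 13 had an uncalled probe set with the opposite sign. The 10 are Nobox, Trim71, Cd55, Apoa1, Elavl2, Gdpd1, Mtm1, H2-D1, Pbx3 and Stag3. The other 73 genes rest on 1 tested probe set.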
